A study of Mus musculus with 9 samples.

Results

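*Lrrc15*+ *Adam12*+ fibroblasts of the injured mouse knee were examined in single-cell RNA-sequencing libraries of sorted synovial joint cells. Members were taken from the 6 injured libraries, among cells with at least 500 genes, at least 1000 UMIs (unique molecular identifiers, each counting 1 captured transcript) and at most 10% mitochondrial UMIs. A member had at least 2 *Lrrc15* UMIs, at least 1 *Adam12* UMI, no UMI of *Clic5*, *Ptprc*, *Pecam1* or *Myh11*, and fewer than 2 of 5 cycling genes (*Mki67*, *Ccna2*, *Ccnb1*, *Ccnb2* and *Cdk1*) detected. Members were thus chosen by measured UMI counts of these genes. This gave 420 members of 3503 kept cells in the injured libraries (12.0%), of 4788 kept cells in all 9 libraries. The comparison cells were the 902 cells of the same libraries that had a *Cd34* UMI and no *Lrrc15* UMI under the same limits.

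The animals were *Gdf5-Cre;Tom;Pdgfrα-H2BGFP* mice, labelled as 11 to 12 weeks old, in which cells descended from the embryonic joint interzone carry the red reporter Tom and *Pdgfrα*-expressing cells a green nuclear reporter. Tom+ cells (*Gdf5*-lineage) and Tom-GFP+ cells (*Pdgfrα*-expressing cells of other origin) were sorted from knees at steady state (2 Tom+ libraries and 1 Tom-GFP+ library) or on day 6 after a surgical injury that scored the joint surface cartilage (4 Tom+ and 2 Tom-GFP+ libraries). The Tom mark records past *Gdf5*-Cre activity and not present *Gdf5* expression, and no sham-operated library was among those used. The sort selects for the reporters, so cells with neither were not sampled.

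LRRC15 is a leucine-rich repeat membrane protein found on activated fibroblasts of wounds, scars, tumours and arthritic joints, and its gene is induced by TGF-β in cultured mesenchymal cells. ADAM12 is a membrane-anchored metalloprotease of perivascular and wound fibroblasts. Fibroblasts of this kind are known for producing collagen and for contractile proteins, while *Cd34*+ *Pi16*+ fibroblasts are described as a reserve found around vessels and beneath linings of many tissues.

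Members were found in each injured library but not evenly. In the 4 Tom+ injured libraries they were 156 of 759 cells (20.6%, exact 95% interval 17.7 to 23.6), 86 of 826 (10.4%), 32 of 518 (6.18%) and 28 of 620 (4.52%). In the 2 Tom-GFP+ injured libraries they were 91 of 503 cells (18.1%) and 27 of 277 (9.75%). The ranges of the lineages overlapped, and the shares were 10.4% ± 7.20 (SD, n = 4) in Tom+ and 13.9% ± 5.90 (SD, n = 2) in Tom-GFP+ libraries, a difference of -3.50 percentage points (2-sided exact permutation p = 0.667, where 15 relabellings allow no p below 0.0667). The difference was 0.667 percentage points without Tom-GFP+ injured replicate 1. These intervals, and the limits below, cover counting error only.

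**Figure D1:**
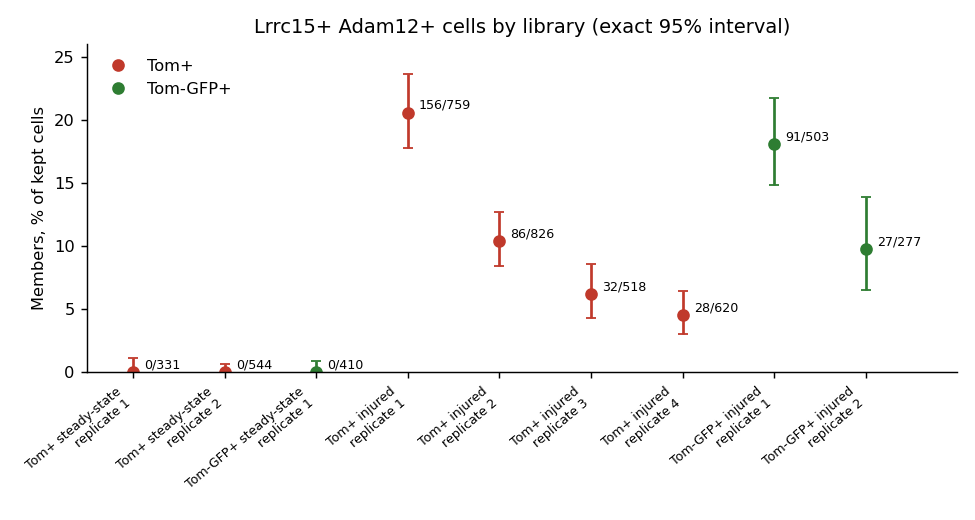
Members as a percentage of kept cells (vertical axis) in each of the 9 libraries, with exact 95% binomial intervals and the counts beside each point. All 6 injured libraries hold members, from 4.52% to 20.6%, and the 3 steady-state libraries hold 0.

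No steady-state cell met the rule, 0 of 331, 0 of 544 and 0 of 410 cells, which allows shares of up to 0.906%, 0.551% and 0.732% by the limit of 3 counts of the total. The exact 95% intervals plotted for the same libraries end at 1.11%, 0.676% and 0.896%. Of the 1285 steady-state cells, 19 had a *Lrrc15* UMI and 6 had 2 or more, and none of those 6 had an *Adam12* UMI. Each of these 6 cells had *Cd34* UMIs. Kept cells of the injured libraries were deeper (median 12223 to 18567 UMIs per library) than those of the steady-state libraries (8050.5 to 8647). The gene lists of 5 of the 6 injured libraries are in a newer format than those of the steady-state libraries. Tom+ injured replicate 1 has the older format and held 156 members of 759 cells. Thinned to 5000 UMIs per cell, 0 of 278, 0 of 448 and 0 of 336 steady-state cells met the rule. In the injured libraries 3.50%, 2.40%, 0.828% and 1.39% (Tom+) and 5.53% and 3.11% (Tom-GFP+) of such cells did. A *Lrrc15* UMI was then found in 1.44%, 0.893% and 0.298% of steady-state cells and in 14.5% to 29.6% per injured library. The part of depth or format in these counts was not tested.

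The rule kept a subset of *Lrrc15*-bearing cells. In the injured libraries 1133 cells had a *Lrrc15* UMI and 794 had 2 or more, of which 545 also had *Adam12*, and the limit on cycling genes then met 114 of these cells, *Clic5* 12, *Myh11* 3, *Pecam1* 2 and *Ptprc* 0. Members held 51.4% of all *Lrrc15* UMIs of the injured libraries, with a median of 4 and at most 21 in a cell, and 345 of the 420 also had a *Cd34* UMI. Members had more UMIs per cell than the comparison cells (medians 19612.5 and 10866), which the rule favours because it asks for 3 UMIs of 2 genes. When every cell was thinned to 5000 UMIs, 88 cells still met the rule. In all, 15 members were among the 5% of cells with the highest Scrublet doublet scores, and none shared a barcode sequence with another library.

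Cells on either side of the thresholds are given as a description, without a test. The 92 members with exactly 2 *Lrrc15* UMIs and the 111 cells with 1 *Lrrc15* UMI and *Adam12*, left out of the members, had mean levels of 3125 and 3265 CPM (counts per 1000000 UMIs over the cells of a library) for *Cthrc1*, 611 and 550 CPM for *C1qtnf3* and 124 and 118 CPM for *Il1rl1*. The 221 cells with 2 or more *Lrrc15* UMIs but no *Adam12* had 3224 CPM of *Cthrc1*, 472 CPM of *C1qtnf3* and 23.5 CPM of *Il1rl1*. Cells with neither *Lrrc15* nor *Adam12* (1204 cells) had 862, 113 and 7.75 CPM of the same genes. Across the *Lrrc15* threshold these 3 genes differed by less than the SD between libraries, and means of *Tagln* were 130 CPM just inside and 58.0 CPM outside, and of *Mdk* 148 and 84.6 CPM. Across the *Adam12* threshold, the 144 cells with 1 *Adam12* UMI and the 221 with none had 111 and 23.5 CPM of *Il1rl1*, but 205 and 241 CPM of *Acta2* and 111 and 217 CPM of *Tagln*, so these contractile genes were not at lower levels in *Lrrc15*-bearing cells without *Adam12*.

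The genes of the rule and of the label are described without a test. *Lrrc15* (chr16:30269302-30283256, GRCm38) stood at 214, 277 and 452 CPM (lowest, median and highest of 6 libraries) in members and *Adam12* (chr7:133883199-134232146) at 91.9, 137 and 222 CPM, against 16.3, 32.1 and 60.2 CPM of *Adam12* in comparison cells. *Tnc*, encoding the wound matrix protein tenascin C (chr4:63959785-64047015), was at 274, 333 and 698 CPM in members and 54.9, 118 and 337 CPM in comparison cells, with members above in 6 of 6 libraries. *Mdk*, which encodes the growth factor midkine (chr2:91929805-91932297), was at 32.4, 62.4 and 150 CPM in members and 27.9, 69.2 and 101 CPM in comparison cells. Members were above in 3 of 6 libraries for *Mdk*. In the Tom-GFP+ libraries *Mdk* was at 141 and 150 CPM in members and 78.1 and 60.3 CPM in comparison cells, with UMIs in 28.9% and 40.7% of members and 20.4% and 19.3% of comparison cells at 5000 UMIs per cell. In the Tom+ libraries it was at 32.4, 54.2, 49.8 and 70.6 CPM in members and 27.9, 80.3, 57.4 and 101 CPM in comparison cells, so of the 4 markers that define the label *Mdk* did not set members apart in Tom+ libraries. In comparison cells of the steady-state libraries *Mdk* stood at 11.6, 11.0 and 17.1 CPM and *Tnc* at 12.7, 11.7 and 17.4 CPM.

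The fibroblast part of the label held in each library. All members had UMIs of *Col1a1*, *Col1a2*, *Col3a1* and *Dcn*, as had nearly all comparison cells, while *Col1a1* UMIs were also found in 50.6% of 89 immune or endothelial cells of the same libraries (median 10402 UMIs). *Pdgfra* had UMIs in 87.3% ± 2.58 (SD, n = 6) of members and 3.37% of those 89 cells, and at 5000 UMIs per cell in 46.4% ± 11.7 of members, 57.4% ± 9.74 of comparison cells and 1.37% of 73 immune or endothelial cells. Markers of other cells were low: the 15 immune genes summed to 41.1 CPM ± 23.3 in members, with *Lyz2* the most abundant and *Cd3e*, *Itgam*, *Tyrobp*, *Fcer1g* and *Cd52* at 0 in all 6 libraries, and the 10 endothelial genes to 61.8 CPM ± 20.9, nearly all *Plvap*, with *Cdh5*, *Emcn* and *Vwf* at 0. Comparison cells had 206.5 CPM ± 420 of the immune genes, of which Tom+ injured replicate 4 had 1064 CPM and the other libraries 22.1 to 58.1 CPM. The 10 mural cell genes summed to 94.9 CPM ± 21.8 in members and 130 CPM ± 39.7 in comparison cells (*Pdgfrb* most abundant), and the 8 adipocyte genes to 42.6 CPM ± 35.4 and 152 CPM ± 84.3 (*Lpl* most abundant, *Adipoq* and *Lep* at 0 in members).

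To ask what else distinguishes members from the *Cd34*+ *Lrrc15*-negative cells of the same mouse and sort, UMIs were summed per library and set and tested in edgeR with library as a block. Of 8673 genes tested, 571 (6.58%) were higher in members and 752 (8.67%) lower at an adjusted p under 0.05, and the median log2 fold change of all genes was -0.02. The rule separated the sets on *Lrrc15*, *Adam12* and *Cd34*, so genes that vary with these had to differ, and the counts below are read against those 2 percentages. The groups did not overlap for 234 genes (2.70%), of which 215 were among those called. Because members were deeper, the fit was repeated on cells within the interquartile range of the members' UMIs in each library (208 members, 217 comparison cells), called like depth hereafter. There 83 genes were higher (1.52%) and 117 lower (2.14%) of 5463, the shares against which counts at like depth are read. Of the 1040 called genes tested again, 1015 (97.6%) had the same sign. These cells are a subset of the same members and comparison cells, so that agreement in sign is not independent. The part of the smaller number of cells in calls lost at like depth was not tested.

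The 15 genes named by rule as higher included contractile, matrix and signalling genes. *Acta2*, encoding smooth muscle actin, was at 35.9, 304 and 620 CPM (lowest, median, highest) in members and 12.6, 24.6 and 60.9 CPM in comparison cells (log2 fold change 3.07 ± 0.44 SE, adjusted p = 0.000404). The sets overlapped between libraries for *Acta2*. Members were above comparison cells in each library for all 15, which the rule for naming genes requires. *Tagln*, an actin-binding partner of smooth muscle and myofibroblasts, was at 33.8, 140 and 305 CPM against 11.9, 22.7 and 51.1 CPM (2.38 ± 0.38), a difference that did not pass at like depth (1.54, adjusted p = 0.0831). At 5000 UMIs per cell 29.3% ± 14.3 of members and 7.83% ± 3.46 of comparison cells had an *Acta2* UMI, against 15.1% of 73 immune or endothelial cells of the same libraries (unthinned 42.2%, 13.3% and 20.2%). Members of Tom+ injured replicate 4 (14.8%) and Tom-GFP+ injured replicate 2 (11.1%) were not above the immune or endothelial share.

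*Il1rl1* (chr1:40429570-40465415) encodes ST2, the receptor for the alarmin IL-33. It was at 91.9, 106 and 279 CPM in members, 12.5, 18.03 and 34.5 CPM in comparison cells, and 0, 0.354 and 1.05 CPM in the steady-state libraries (2.73 ± 0.22, adjusted p = 5.53e-06). No library's comparison cells reached the lowest member level, although at like depth *Il1rl1* was at a log2 fold change of 1.49 (adjusted p = 0.0619). *C1qtnf3* (chr15:10952332-10980150), a secreted C1q and TNF related protein, was at 544, 728 and 1387 CPM against 79.0, 100.4 and 296 CPM, and 4.24, 12.2 and 19.5 CPM at steady state (2.65 ± 0.21, adjusted p = 5.53e-06). *C1qtnf3* did not overlap either, and it passed at like depth (2.18, adjusted p = 6.08e-06).

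The matrix genes of the 15 were *Tnn*, *Col12a1*, *Col8a1*, *Cthrc1* and *Wisp1*. *Tnn*, encoding tenascin W (chr1:160085029-160153580), was at 110, 210 and 426 CPM against 9.62, 46.6 and 183 CPM (2.39 ± 0.30, adjusted p = 0.000146). *Cthrc1*, a secreted protein of collagen-producing repair fibroblasts, was at 2025, 4334 and 5120 CPM against 640, 1136 and 2956 CPM (1.60 ± 0.15, adjusted p = 2.29e-05). *Cthrc1* was at 25.5 to 27.5 CPM in steady-state comparison cells, so the injured comparison cells already stood far above these libraries. *Col12a1* and *Col8a1*, collagens of fibril surfaces and basement-membrane-like sheets, had log2 fold changes of 1.78 ± 0.20 and 1.76 ± 0.22, and *Wisp1*, a matricellular CCN protein, 1.56 ± 0.18 with no overlap. At like depth *Col8a1* was at 0.87 (adjusted p = 0.132) and the other four passed.

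The rest of the 15 were *Crabp2*, *Fabp5*, *Bcat1*, *Ociad2*, *Barx2* and *Scx*. *Crabp2*, which delivers retinoic acid to its nuclear receptor, was at 244, 615 and 1019 CPM against 72.3, 117 and 331 CPM (1.95 ± 0.32), and *Fabp5*, a fatty acid carrier, at 23.5, 103 and 271 CPM against 12.0, 16.8 and 103 CPM (1.93 ± 0.40). *Fabp5* had UMIs in 60.3% of the 73 immune or endothelial cells at 5000 UMIs, above its 24.5% ± 10.05 of members (unthinned 60.7% and 46.7%). *Bcat1*, a branched-chain amino acid transaminase, had 1.67 ± 0.17 and *Ociad2* 1.53 ± 0.20. *Barx2*, a homeobox factor, was at 63.8, 95.4 and 146 CPM against 18.1, 30.0 and 60.2 CPM (1.49 ± 0.26) and at 0.354 to 1.06 CPM at steady state, and *Scx*, the tendon factor scleraxis, at 22.3, 38.0 and 137 CPM against 6.62, 10.4 and 79.2 CPM (1.54 ± 0.20). The sets did not overlap for *Barx2* and *Ociad2*. *Fabp5* and *Scx* were at log2 fold changes of 1.78 and 0.97 at like depth and did not pass there (adjusted p = 0.114 and 0.0860).

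**Figure D2:**
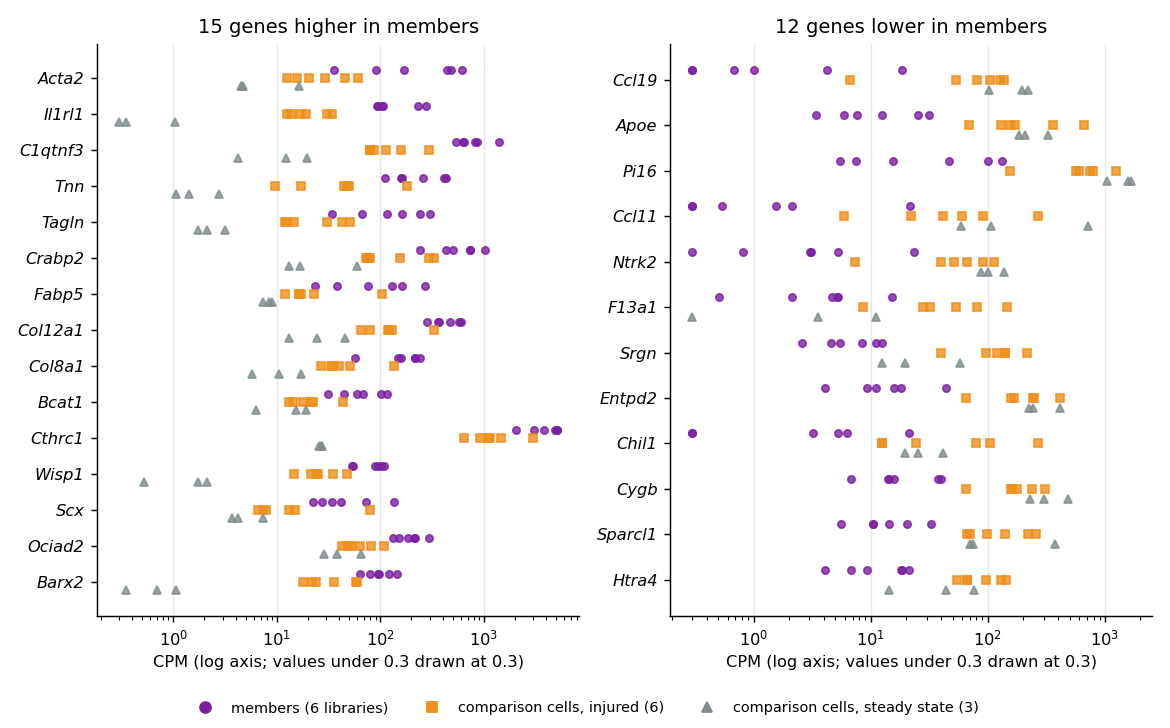
CPM (log axis) of the 15 genes higher and the 12 lower in members, one point per library for members (6), comparison cells of injured libraries (6) and comparison cells of steady-state libraries (3). Members lie right of the comparison cells without overlap for *Il1rl1*, *C1qtnf3*, *Wisp1*, *Ociad2* and *Barx2*, and left of them for 7 of the 12 lower genes.

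Promoter sequence is shown for *Lrrc15*, which defines the cells, and for *C1qtnf3* and *Tnn*, which were among the higher genes and share a motif. These are the 250 bases before the gene start in RefSeq (GRCm38.p6), 5′ to 3′ on the gene's strand, with the motif match in capitals: TGANTCA (AP-1) in *Lrrc15*, chr16:30283255-30283504, minus strand; GGAATG (TEAD) in *C1qtnf3*, chr15:10952082-10952331, plus strand, and in *Tnn*, chr1:160153576-160153825, minus strand.
Lrrc15: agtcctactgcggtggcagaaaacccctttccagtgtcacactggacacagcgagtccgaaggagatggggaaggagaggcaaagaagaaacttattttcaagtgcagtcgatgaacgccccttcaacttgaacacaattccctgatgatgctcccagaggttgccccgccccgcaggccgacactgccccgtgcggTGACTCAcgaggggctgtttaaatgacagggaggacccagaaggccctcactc
C1qtnf3: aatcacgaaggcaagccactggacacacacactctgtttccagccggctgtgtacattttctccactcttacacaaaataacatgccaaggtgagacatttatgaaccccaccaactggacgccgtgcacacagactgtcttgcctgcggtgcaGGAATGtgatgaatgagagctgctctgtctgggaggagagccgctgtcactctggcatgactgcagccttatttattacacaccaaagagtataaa
Tnn: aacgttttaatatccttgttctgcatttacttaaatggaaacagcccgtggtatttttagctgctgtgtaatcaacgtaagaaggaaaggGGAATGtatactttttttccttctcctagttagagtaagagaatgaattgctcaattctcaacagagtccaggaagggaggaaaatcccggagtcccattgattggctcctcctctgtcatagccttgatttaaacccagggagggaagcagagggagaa
Both strands were searched for these motifs and for the RUNX letters TGTGGT. The letters GGAATG were found in 3 of the 7 higher genes with a promoter in the table (42.9%: *Tnn*, *C1qtnf3* and *Acta2*), in 1 of 8 lower genes (12.5%, *Entpd2*) and in 12.6% of all 27025 promoters. TGANTCA was found in 1 of 7 higher genes (*Bcat1*), 1 of 8 lower genes (*Entpd2*) and 6.87% of all, and TGTGGT in 1 of 7 (*Col8a1*), 1 of 8 (*Ntrk2*) and 14.2% of all. These matches are letters in a window and not sites of binding.

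The 12 genes named as lower included the reserve marker *Pi16*, the chemokines *Ccl19* and *Ccl11*, and *Apoe*. *Pi16* (chr17:29317680-29330593), the marker of reserve fibroblasts, was at 5.49, 31.3 and 133 CPM in members and 154, 669 and 1243 CPM in comparison cells (-4.16 ± 0.34, adjusted p = 6.55e-06), and at 1051 to 1655 CPM at steady state. The members' highest library was below the comparison cells' lowest for *Pi16*. *Ccl19*, a chemokine for lymphocytes and dendritic cells, was at 0, 0.849 and 18.7 CPM against 6.60, 92.8 and 138 CPM (-4.85 ± 0.39), and *Ccl11*, the eosinophil chemokine eotaxin, at 0, 1.05 and 21.8 CPM against 5.87, 50.7 and 268 CPM (-4.03 ± 0.27). Members had under 3 UMIs of *Ccl19* and of *Ccl11* in 5 of 6 libraries each, so these fitted values depend on the prior count. *Apoe*, a lipid carrier, was at 3.43, 10.0 and 31.4 CPM against 69.0, 162 and 660 CPM (-4.37 ± 0.35), again without overlap.

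*Srgn*, encoding the proteoglycan serglycin, was at 2.61, 6.97 and 12.5 CPM against 39.6, 129 and 218 CPM (-3.78 ± 0.22), and *Htra4*, a serine protease listed with the lining genes, at 4.05, 13.8 and 21.1 CPM against 54.3, 81.2 and 144 CPM (-3.14 ± 0.26). *Entpd2*, an ectonucleotidase, *Cygb*, encoding cytoglobin, and *Sparcl1*, a matricellular protein, had log2 fold changes of -3.71 ± 0.29, -3.22 ± 0.19 and -3.21 ± 0.33 with no overlap. *Ntrk2*, the BDNF receptor, *F13a1*, a transglutaminase subunit, and *Chil1*, a chitinase-like protein, had -3.97 ± 0.37, -3.79 ± 0.36 and -3.35 ± 0.45 and overlapped between libraries. Members had under 3 UMIs of *Ntrk2*, *F13a1* and *Chil1* in 3 of 6 libraries each, so their fitted values also depend on the prior count. The 8 of these 12 that could be tested at like depth all passed there. *Htra4* was at -3.66, *Srgn* at -3.36, *Pi16* at -3.30 and *Sparcl1* at -3.01. *Ntrk2* was at -2.45, *Cygb* at -2.35, *Entpd2* at -2.21 and *Apoe* at -1.96. *Ccl19*, *Ccl11*, *F13a1* and *Chil1* were too sparse to test. Immune genes summed to 1064 CPM in the comparison cells of Tom+ injured replicate 4, and without that library all 12 genes kept their call.

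**Figure D3:**
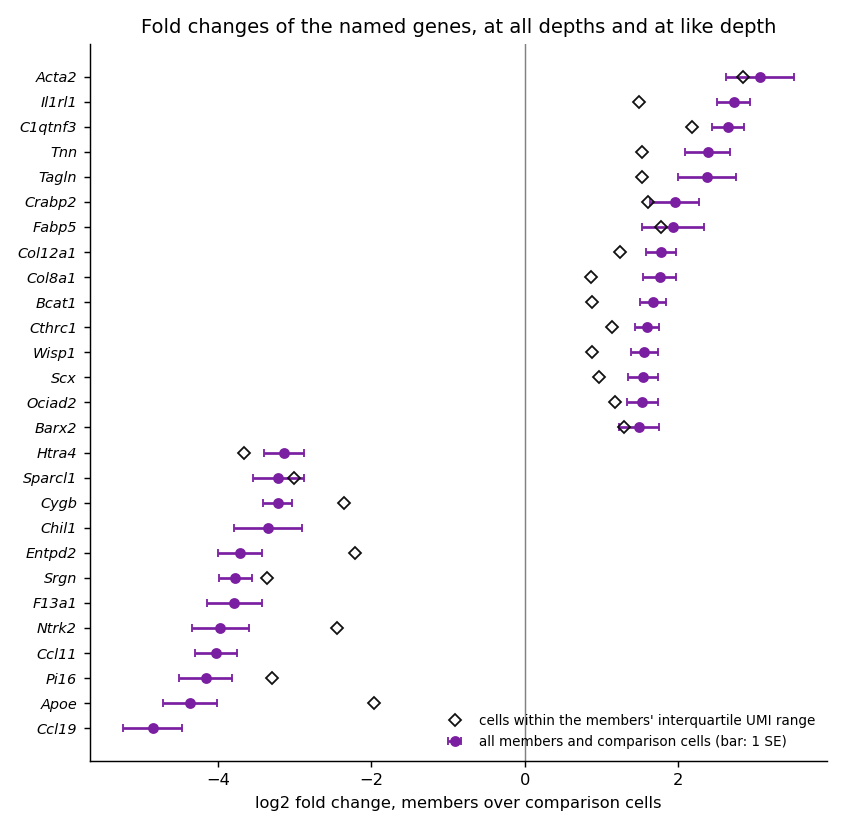
log2 fold change, members over comparison cells (horizontal axis), of the 27 named genes, with all cells (filled points, bar 1 SE) and with cells within the members' interquartile UMI range (open diamonds, shown for the 23 genes tested there). Each diamond lies on the same side of 0 as its filled point, most of them nearer to 0.

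Most fibrillar collagen genes were higher and other collagens were mixed. Of 8 fibrillar collagen genes tested, 7 were higher and none lower (median 0.74), with *Col11a1* not called, and 4 were higher at like depth, *Col1a2*, *Col5a1*, *Col5a2* and *Col5a3*. *Col1a1* was at 9992, 11747 and 17396 CPM in members and 5616, 7781 and 8639 CPM in comparison cells (0.76 ± 0.12), without overlap, and at 1730 CPM ± 122 (SD, n = 3) at steady state. At like depth *Col1a1* was not called (0.55, adjusted p = 0.124). *Col5a3*, a regulatory collagen of fibril diameter, was higher by 1.10 ± 0.14 and *Col3a1* by 0.35 ± 0.10. *Col3a1* lost its call in 5 of the 6 omissions of a library, with adjusted p up to 0.112 (without Tom+ injured replicate 3). Of 13 other collagens 8 were higher and 4 lower (median 0.63), and 5 of 11 were higher and 2 lower at like depth. The lower genes were 3 chains of basement membrane collagen IV, *Col4a1* (-2.26 ± 0.17), *Col4a2* (-2.02 ± 0.23) and *Col4a5* (-1.39 ± 0.28), and *Col14a1* (-0.66 ± 0.09). *Col4a1* and *Col4a2* were also lower at like depth.

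Among 21 genes for folding, modifying and cross-linking collagen, 10 were higher and 2 lower (median 0.31), and at like depth *Loxl2* and *P4ha2* were higher and none lower. The cross-linking oxidase *Loxl2* was at 203, 283 and 405 CPM against 77.0, 93.7 and 164 CPM (1.44 ± 0.12), without overlap, *Lox* was higher by 0.84 ± 0.15, and *P4ha2*, a prolyl hydroxylase subunit, by 0.91 ± 0.12. *Pcolce*, an enhancer of procollagen cleavage, was lower (-0.62 ± 0.12). Neither *Lox* (0.47, adjusted p = 0.254) nor *Pcolce* (-0.61, adjusted p = 0.0575) was called at like depth. Of 19 matricellular and wound matrix genes 8 were higher and 3 lower (median 0.27), and at like depth 6 were higher and 1 lower, *Ctgf*. *Postn*, encoding periostin, was at 1436, 2522 and 3343 CPM against 756, 1099 and 1302 CPM (1.13 ± 0.16) and *Thbs2*, a thrombospondin, at 410, 517 and 557 CPM against 140, 197 and 313 CPM (1.27 ± 0.14). Neither overlapped, while *Comp*, the cartilage oligomeric matrix protein, was lower (-1.07 ± 0.24). At like depth *Comp* was at -0.93 and was not called (adjusted p = 0.302).

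Other matrix lists were mixed. Of 9 small leucine-rich proteoglycans, collagen-binding matrix proteins, none was higher and 3 were lower, *Dcn* (-0.64 ± 0.12), *Podn* (-1.86 ± 0.24) and *Ecm2*. At like depth this turned to 1 higher, *Lum*, and none lower (median 0.22), with *Dcn* at -0.25 (adjusted p = 0.216) and *Podn* at -1.13 (adjusted p = 0.161). Of 24 matrix proteases and inhibitors 4 were higher and 7 lower (median -0.20), and 1 of 22 was higher and 2 lower at like depth. *Timp3*, a matrix-bound metalloprotease inhibitor, was lower without overlap (-2.27 ± 0.18) and *Timp1* higher (0.80 ± 0.21), *Mmp3* (stromelysin) was lower (-1.75 ± 0.35) and *Adamts14*, a procollagen N-propeptidase, higher (1.61 ± 0.21). *Timp1* lost its call without Tom+ injured replicates 2 or 3 (adjusted p = 0.0525 and 0.0808). At like depth *Timp1* stood at 0.20 (adjusted p = 0.737), and *Mmp3* was not called either (-1.06, adjusted p = 0.0609). *Mmp13*, a collagenase, was at 0, 64.2 and 198 CPM against 1.70, 23.8 and 52.2 CPM and did not pass (1.81 ± 0.65, adjusted p = 0.0804), but was higher at like depth (2.54, adjusted p = 0.0213) and lower against comparison cells with any *Cd34* count, 0 included (-1.74, adjusted p = 0.00266).

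Contractile and cytoskeletal genes were higher in 12 of 16 and lower in none (median 0.73), and 3 were higher at like depth. Besides *Acta2* and *Tagln*, *Myl9*, a myosin light chain, was higher by 1.45 ± 0.27 and *Tpm2*, a tropomyosin, by 1.29 ± 0.18. At like depth *Acta2*, *Tpm2* and *Cald1* were called. *Tagln* and *Myl9* were at log2 fold changes of 1.54 and 1.67 there and were not called (adjusted p = 0.0831 and 0.0591). The 2 mural cell genes that could be tested went opposite ways, *Cspg4* at 0.72 ± 0.21 and *Pdgfrb* at -0.45 ± 0.11, and both lost their calls in omissions of a library (4 and 3 of 6, adjusted p up to 0.172 and 0.0731). *Notch3* and *Rgs5* of the mural list were too sparse to test.

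Genes of the signalling lists went both ways. Of 17 TGF-β ligands, activators and receptors 2 were higher and 5 lower (median -0.15), and none was called at like depth. *Tgfb1* was higher by 0.48 ± 0.12 and *Tgfbr2*, a receptor subunit, lower (-0.41 ± 0.12), as were the latency protein *Ltbp4* (-1.39 ± 0.27) and *Acvr2a*, an activin receptor (-1.34 ± 0.24). At like depth *Tgfb1* was at 0.25 (adjusted p = 0.609), *Tgfbr2* at -0.13 (0.876) and *Ltbp4* at -0.15 (0.783). Against comparison cells with any *Cd34* count, 0 included, *Tgfb1* was at -0.0866 (adjusted p = 0.652). Of 9 TGF-β targets 1 was higher, *Pmepa1* (1.03 ± 0.15), and 1 was lower, *Tgif1* (-0.57 ± 0.17), while at like depth *Pmepa1* and *Nrep* were higher and none lower. The calls of *Tgfbr2* and *Tgif1* were lost in 5 and 4 of the 6 omissions, with adjusted p up to 0.135 and 0.159 (without Tom+ injured replicate 2). Of 11 BMP genes none was higher and 4 were lower, the inhibitory ligand *Gdf10* (-2.64 ± 0.33), *Bmp4* (-1.30 ± 0.39) and the targets *Id2* (-0.74 ± 0.19) and *Id3* (-0.39 ± 0.11). *Bmp4* lost its call in 3 omissions, with a value of -0.67 and an adjusted p of 0.156 without Tom-GFP+ injured replicate 1, *Id2* in 2 (up to 0.0918) and *Id3* in 4 (up to 0.181, both without Tom+ injured replicate 2). Of 11 Wnt genes 1 was higher, *Dkk3* (0.62 ± 0.11), and 5 lower, including the antagonists *Dkk2* (-2.27 ± 0.19), without overlap, and *Sfrp4* (-1.91 ± 0.30). At like depth none of 6 BMP genes was called, and 3 of 7 Wnt genes were lower and none higher. Of 23 growth factors and receptors 4 were higher, among them *Pdgfc* (1.34 ± 0.22), *Pdgfa* (0.82 ± 0.10) and the midkine relative *Ptn* (0.70 ± 0.17), and 6 lower, among them *Fgf7* (-1.03 ± 0.20) and *Igf1* (-0.85 ± 0.12). At like depth 1 of 19 was higher, *Ptn*, and 1 lower, *Lrp1*, with *Pdgfc* at 0.63 (adjusted p = 0.296), *Pdgfa* at 0.34 (0.291), *Fgf7* at -0.63 (0.297) and *Igf1* at -0.23 (0.493). Integrins were higher in 2 of 8, *Itga5* (0.63 ± 0.11), a fibronectin receptor chain, and *Itgb1* (0.34 ± 0.10), and lower in 1, *Itga9* (-0.83 ± 0.24), and of 3 Notch genes tested the target *Hes1* was lower (-0.63 ± 0.17). None of the 7 integrins, nor *Hes1*, was called at like depth. *Itgb1*, *Itga9* and *Hes1* lost their calls in 3, 5 and 4 omissions, with adjusted p up to 0.0777, 0.163 and 0.0702.

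Complement was lower in 8 of 10 genes and higher in none (median -1.78), and 7 of 9 were lower at like depth. *C3*, the central complement component, was at 50.7, 100.7 and 171 CPM against 191, 989 and 1142 CPM (-3.01 ± 0.22) and *Serping1*, the C1 inhibitor, at 350.4, 833 and 1020 CPM against 1113, 2712 and 3806 CPM (-1.83 ± 0.11). Neither overlapped between the sets, and *C4b* (-2.18 ± 0.12) was lower with overlap. Of 17 chemokines and cytokines 9 were lower and 3 higher, and at like depth 2 of 13 were lower, *Cxcl12* and *Csf1*, and none higher. *Cxcl12* (-2.29 ± 0.31) and *Cxcl14* (-2.76 ± 0.48), which attract leukocytes, were lower, while the neutrophil chemokines *Cxcl2* (1.99 ± 0.51) and *Cxcl5* (1.21 ± 0.24) were higher. *Cxcl2* and *Cxcl5* varied, from 0 to 440 and 340 CPM in members, with members above in 5 of 6 libraries for each. At like depth *Cxcl14* (-2.12, adjusted p = 0.117), *Cxcl2* (1.12, adjusted p = 0.324) and *Cxcl5* (-0.42, adjusted p = 0.723) were not called. *Cxcl2* lost its call without Tom+ injured replicates 2 or 3 (adjusted p = 0.0530 and 0.0607).

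Genes of the other joint fibroblasts were more often lower. Of 17 universal and sublining genes 11 were lower and none higher (median -0.82), including *Apod*, a lipocalin (-2.90 ± 0.22), *Pcolce2* (-2.59 ± 0.38) and the surface protein *Ly6a* (-0.48 ± 0.09). At like depth 3 of 13 were lower, *Pi16*, *Pcolce2* and *Apod*, and *Ly6a* was at -0.28 (adjusted p = 0.260). *Clec3b*, encoding tetranectin, was at 1830, 3155 and 5836 CPM against 2931, 4890 and 5741 CPM and did not pass (adjusted p = 0.0799). *Thy1*, a sublining marker of the study, was at 174, 202 and 264 CPM against 207, 251 and 295 CPM and was not called either. *Cd34* was part of the rule, so lower values of genes that vary with it are not independent of the choice of cells. Of 9 lining genes 8 were lower and 1 higher (median -1.13), *Prg4*, encoding the lubricant lubricin (-1.65 ± 0.18), among the lower and *Cd44*, the hyaluronan receptor (0.82 ± 0.13), the higher. At like depth 4 of 7 were lower, *Prg4* among them, and *Cd44* was not called (0.41, adjusted p = 0.128). *Clic5*, a lining marker, was excluded by the rule in both sets.

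Lists of joint lineages held few tested genes. Of 6 tendon genes 2 were higher, *Scx* and *Thbs4* (0.66 ± 0.15), and 1 lower, of 4 cartilage genes none was called, and of 6 bone genes 2 were higher and 1 lower. *Sox9*, the chondrocyte factor, was at 33.8, 63.7 and 75.8 CPM against 24.1, 41.9 and 59.6 CPM (0.49 ± 0.19, adjusted p = 0.102) and *Acan*, encoding aggrecan, at 16.9, 81.5 and 240.0 CPM against 4.53, 50.6 and 134 CPM (adjusted p = 0.232). *Runx2*, the osteoblast factor, was higher at low levels, 3.11, 14.7 and 21.3 CPM against 2.61, 4.67 and 13.9 CPM (1.09 ± 0.33, adjusted p = 0.0422), a call lost in 5 of 6 omissions (up to 0.185, without Tom-GFP+ injured replicate 1). *Ibsp*, bone sialoprotein, was higher (2.80 ± 0.62) but uneven, from 0 to 203 CPM in members and above comparison cells in 4 of 6 libraries. Against comparison cells with any *Cd34* count, 0 included, *Ibsp* was lower (-5.12, adjusted p = 4.18e-05), as was *Sox9* (-0.53, adjusted p = 0.0215). *Bglap2*, an osteocalcin gene, was lower (-3.22 ± 0.31). The adipocyte gene *Lpl* (-2.19 ± 0.28) and the endothelial gene *Plvap* (-0.81 ± 0.19) were lower, and of the 2 immune genes tested neither was called. At like depth none of 5 tendon (median 0.97), 4 cartilage (median 0.10) and 1 bone genes was called. *Lpl* was lower there and *Plvap* was not called (adjusted p = 0.638).

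Cell state lists were counted in the same way. Of 14 immediate early and stress genes 11 were lower and none higher (median -1.10), and 6 were lower at like depth. The list summed to 4174 CPM ± 1299 in members and 8355 CPM ± 2501 in comparison cells, and *Fos* (-1.39 ± 0.20), *Junb* (-1.23 ± 0.15), *Atf3* (-1.44 ± 0.34) and *Zfp36* (-1.42 ± 0.24) were lower. These genes are also induced during enzymatic tissue dissociation, whose part was not tested. Of 17 glycolysis and hypoxia genes 12 were higher and 1 lower (median 0.61), including the lactate exporter *Slc16a3* (1.77 ± 0.32), the glucose transporter *Slc2a1* (1.13 ± 0.23) and *Pgk1* (0.93 ± 0.18), with *Adm*, encoding adrenomedullin, lower (-2.12 ± 0.22). At like depth none of the 15 tested was higher and 1 was lower (median 0.35). Of 17 secretory genes 3 were higher, *Creb3l1* (0.60 ± 0.14), *Sec61b* (0.66 ± 0.11) and *Kdelr2*, and 1 lower, *Sdf2l1* (-0.57 ± 0.16). Of 11 cell cycle genes outside the rule 1 was higher, *Tubb5* (0.35 ± 0.10). *Sdf2l1* and *Tubb5* lost their calls in 4 and 5 omissions (adjusted p up to 0.115 and 0.0981) and *Atf3* without Tom+ injured replicate 2 (0.0579). At like depth no gene of the secretory and cell cycle lists was called, nor were *Atf3* (-1.06, adjusted p = 0.109) and *Zfp36* (-1.05, adjusted p = 0.0529).

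**Figure D4:**
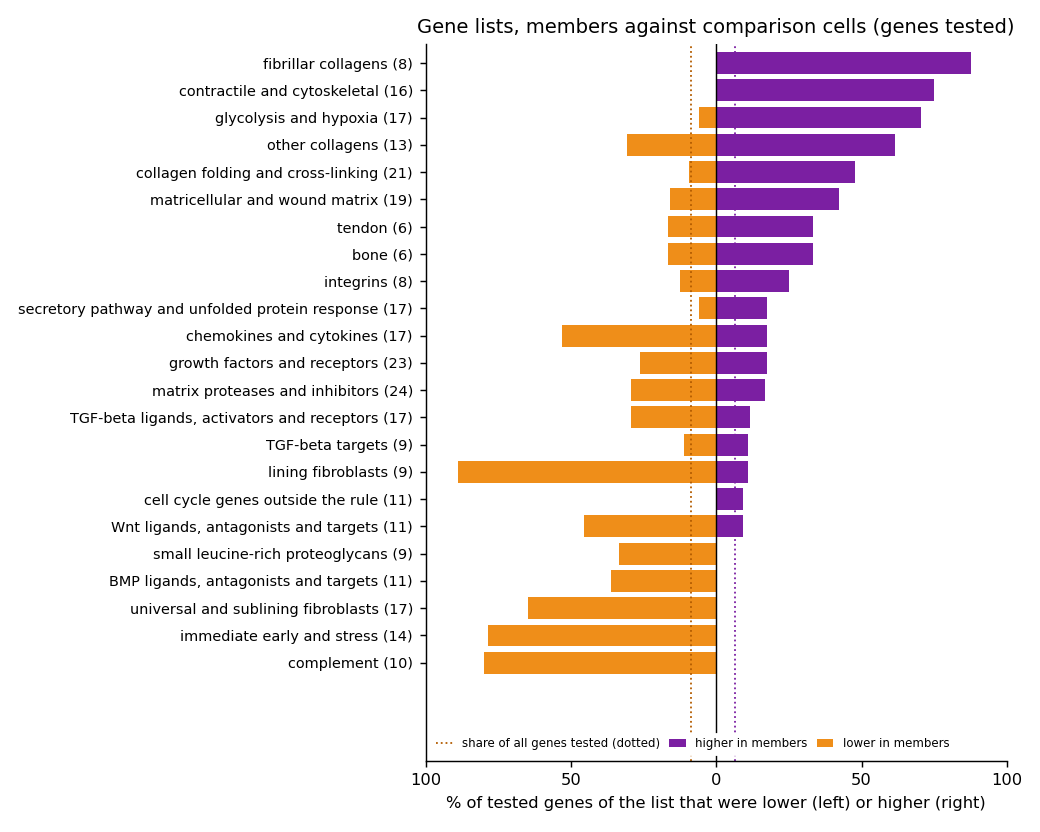
Share of tested genes in each list with at least 6 tested (number tested in brackets) that were higher in members (right) or lower (left), with dotted lines at the shares over all genes, 6.58% higher and 8.67% lower. Fibrillar collagens (7 of 8) and contractile genes (12 of 16) lie farthest right, and lining fibroblast genes (8 of 9), complement (8 of 10) and immediate early genes (11 of 14) farthest left.

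Whether members carry transcripts of the chondrocyte, osteoblast and tenocyte factors *Sox9*, *Runx2* and *Scx* together was read cell by cell. Without thinning, 123 of 420 members had UMIs of none of the 3, 54 of *Sox9* only, 68 of *Scx* only, 73 of *Sox9* and *Scx*, and 33 of all 3. By library, all 3 were found in 13.5%, 8.14%, 0% and 0% of Tom+ members and in 5.49% and 0% of Tom-GFP+ members. At 5000 UMIs per cell, where 418 members and 820 comparison cells were deep enough, the picture thinned out. *Scx* was detected in 37.8%, 29.1%, 15.6% and 14.8% of members in the 4 Tom+ libraries and in 8.89% and 14.8% in the 2 Tom-GFP+ libraries, a mean of 20.2% ± 10.9 against 6.99% ± 7.01 of comparison cells, higher in 6 of 6 libraries (2-sided exact paired permutation p = 0.0312, the smallest that 6 pairs allow, adjusted p = 0.156 over 5 values). *Sox9* was detected in 18.1% ± 6.60 against 13.1% ± 4.13 (exact permutation p = 0.125, adjusted 0.195) and *Runx2* in 5.27% ± 3.21 against 3.13% ± 1.44 (exact permutation p = 0.156, adjusted 0.195). At least 2 of the factors were found in 6.76% ± 5.44 of members and 2.39% ± 2.83 of comparison cells (exact permutation p = 0.0938, adjusted 0.195), and all 3 in 0.321% ± 0.785 and 0.0942% ± 0.231 (exact permutation p = 1). None of the 5 differences passed the adjustment, which a single value could not pass even at the smallest p that 6 pairs allow. Against comparison cells with any *Cd34* count, 0 included, the differences were -0.637 percentage points for *Sox9*, -0.532 for *Runx2* and 13.3 for *Scx*.

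The same shares were read in immune or endothelial cells, taken as background. Of 73 immune or endothelial cells at 5000 UMIs, 4.11% had *Sox9*, 1.37% *Runx2* and 1.37% *Scx* UMIs, with exact 95% intervals up to 11.5%, 7.40% and 7.40%. The members' mean share for *Runx2* lies inside its interval, which rests on 1 of 73 cells. That share is thus read neither as expression nor as its absence. Both Tom-GFP+ libraries, at 8.89% and 7.41%, lie above the upper end for *Runx2*. The means for *Sox9* and *Scx* lie above their intervals, as do all 6 libraries for *Scx* and 5 of 6 for *Sox9*. In Tom+ injured replicate 4 *Sox9* was found in 7.41% of members, inside the interval. Without thinning, *Scx* was found in 37.5% of members and 12.7% of comparison cells, *Runx2* in 21.0% and 5.91% and at least 2 factors in 26.6% and 7.47%, but members had more UMIs.

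Variation among members was ranked gene by gene. Of 4472 genes ranked by residual variance among members within each library, averaged over the 6 libraries (Pearson residuals of a negative binomial model, median 1.14), the 15 most variable were *Clec3b*, *Gm42418*, *Ly6a*, *Mt1*, *Dcn*, *Crip1*, *Postn*, *Ly6c1*, *CT010467.1*, *Col1a1*, *Lum*, *Fos*, *Igf1*, *Igfbp6* and *Itm2a*. *Clec3b* had a residual variance of 22.4, a median of 33 UMIs per member and up to 385, with UMIs in 385 of 420 members. *Ly6a* (16.8) and *Ly6c1* (15.1), surface proteins of the reserve fibroblasts, were also among the 15, as were *Postn* (15.5) and *Col1a1* (14.5). *Gm42418* and *CT010467.1* are loci that collect ribosomal RNA reads, and *Mt1* encodes a stress-induced metallothionein. Levels also differed between libraries, which the ranking does not use: *Gm42418* ranged from 6312 to 23036 CPM, *Clec3b* from 1830 to 5836 CPM and *Crip1* from 3734 to 10566 CPM. Because sets of cells with many UMIs of 1 gene drive this measure, it is a description and carries no test.

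The sort by origin gave a second comparison, Tom+ against Tom-GFP+ members. The reporter transcripts were read first. *tdTom* was at 297, 420, 562 and 408 CPM in Tom+ members and 8.10 and 6.34 CPM in Tom-GFP+ members (5.81 ± 0.40, adjusted p = 0.000121), as the labels of all 6 libraries give. The libraries were sorted on Tom, so this difference was set by the sort. GFP was a sort criterion for Tom-GFP+ cells. *H2BeGFP* was at 141, 182, 293 and 256 CPM in Tom+ and 460 and 386 CPM in Tom-GFP+ members and did not pass (-0.94 ± 0.28, adjusted p = 0.272). It did pass without the filter on low counts (adjusted p = 0.0150) and with a replicate block (-1.32, adjusted p = 0.000506). Of 8216 genes tested, 17 (0.207%) were higher in Tom+ members, *tdTom* among them, and 59 (0.718%) lower. These 76 fell to 45, 21 and 19 without Tom+ injured replicates 1 and 2 and Tom-GFP+ injured replicate 1, and to 16 at like depth. The comparison has 4 libraries against 2, and 627 genes were at an unadjusted p under 0.05. With a block on replicate number, 366 genes were called, 175 higher in Tom+ members and 191 lower. For 74 of the 76 called genes the comparison cells of the same libraries had the same direction, a count given without a test, so a lineage difference is not by itself particular to members. In comparison cells *Sfrp2* had means of 155 CPM ± 135 (SD, n = 4, Tom+) and 783 CPM ± 257 (SD, n = 2, Tom-GFP+), *Gm17455* of 74.3 CPM ± 44.9 and 44.2 CPM ± 15.2, and *Palmd* of 14.1 CPM ± 6.92 and 13.2 CPM ± 13.1.

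Named genes higher in Tom+ members included *Tspan2*, a tetraspanin, *Gm17455*, *Palmd* and *Cdh13*, encoding T-cadherin. *Cdh13* was at 85.0, 115, 70.1 and 227 CPM in Tom+ members and 14.7 and 29.6 CPM in Tom-GFP+ members (2.64 ± 0.51, adjusted p = 0.0401) and *Gm17455* at 123, 114, 140 and 209 CPM against 18.2 and 12.7 CPM (3.15 ± 0.34, adjusted p = 0.00226). *Tspan2* was at 46.4, 88.5, 24.9 and 47.0 CPM against 2.53 and 12.7 CPM (3.44 ± 0.68) and *Palmd* at 27.5, 62.4, 17.1 and 41.8 CPM against 4.56 and 6.34 CPM (2.93 ± 0.59). The lineages did not overlap for any of these 4, a description only, since the share of all genes without overlap between lineages is not given here. *Tspan2*, *Palmd* and *Cdh13* lost the call without Tom+ injured replicate 2 (adjusted p = 0.116, 0.105 and 0.132). *Tspan2* and *Palmd* also lost it without Tom+ injured replicate 1 (0.0615 and 0.0502) or 4 (0.0938 and 0.111). *Gm17455* kept it in each omission of a Tom+ library. Without Tom-GFP+ injured replicate 1, which leaves 1 Tom-GFP+ library, *Tspan2*, *Palmd* and *Cdh13* were at 2.15, 2.63 and 2.07. At like depth these did not pass (adjusted p = 0.208, 0.400 and 0.121), and *Gm17455* did (0.0125).

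Of the 5 named genes lower in Tom+ members, 4 were at 0 in at least 1 Tom+ library. *Ccl8*, a monocyte chemokine, was at 1.62, 3.43, 9.34 and 0 CPM in Tom+ members and 206 and 264 CPM in Tom-GFP+ members (adjusted p = 0.000121). *Sfrp2*, a secreted Wnt-binding protein, was at 28.6, 39.8, 12.5 and 5.23 CPM against 1574 and 315 CPM (-5.21 ± 0.62, adjusted p = 0.00347). Without Tom-GFP+ injured replicate 1 the value for *Sfrp2* was -3.53. *Serpinb2*, a plasminogen activator inhibitor, was at 0, 0, 0 and 5.23 CPM against 52.2 and 19.0 CPM and was not called by DESeq2, which called 88 genes in all, nor without Tom+ injured replicate 2 (adjusted p = 0.0530). *Nlrc3*, an NLR family protein, was at 0.540, 0.686, 0 and 0 CPM against 25.8 and 19.0 CPM, and *Ces2g*, a carboxylesterase, at 0.270, 0.686, 1.56 and 0 CPM against 23.3 and 16.9 CPM. With so few UMIs in Tom+ members the fitted fold changes of *Ccl8*, *Serpinb2*, *Nlrc3* and *Ces2g* depend on the prior count and are not given here.

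Among the 59 lower genes, those of this paragraph were picked out with their values in view, and no list of interferon-induced genes was counted. *Isg15*, a ubiquitin-like protein induced by interferon, was at 9.18, 7.54, 1.56 and 31.4 CPM in Tom+ and 138 and 163 CPM in Tom-GFP+ members (-3.84 ± 0.46, adjusted p = 0.00347). *Ifi27l2a*, also interferon-induced, was at 47.8, 30.2, 24.9 and 54.9 CPM against 554 and 507 CPM (adjusted p = 0.000148), and *Bst2*, encoding tetherin, at 52.9, 64.5, 79.4 and 68.0 CPM against 312 and 224 CPM (adjusted p = 0.00347). *Il1rl1*, which was higher in members of both lineages than in their comparison cells, was at 95.02, 105, 91.9 and 107 CPM in Tom+ and 232 and 279 CPM in Tom-GFP+ members (-1.30, adjusted p = 0.0111). *Pi16*, lower in members, was at 7.56, 5.49, 15.6 and 47.0 CPM against 101 and 133 CPM (-3.07, adjusted p = 0.0300). The lineages did not overlap for any of these 5 genes, again without a share over all genes beside it.

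**Figure D5:**
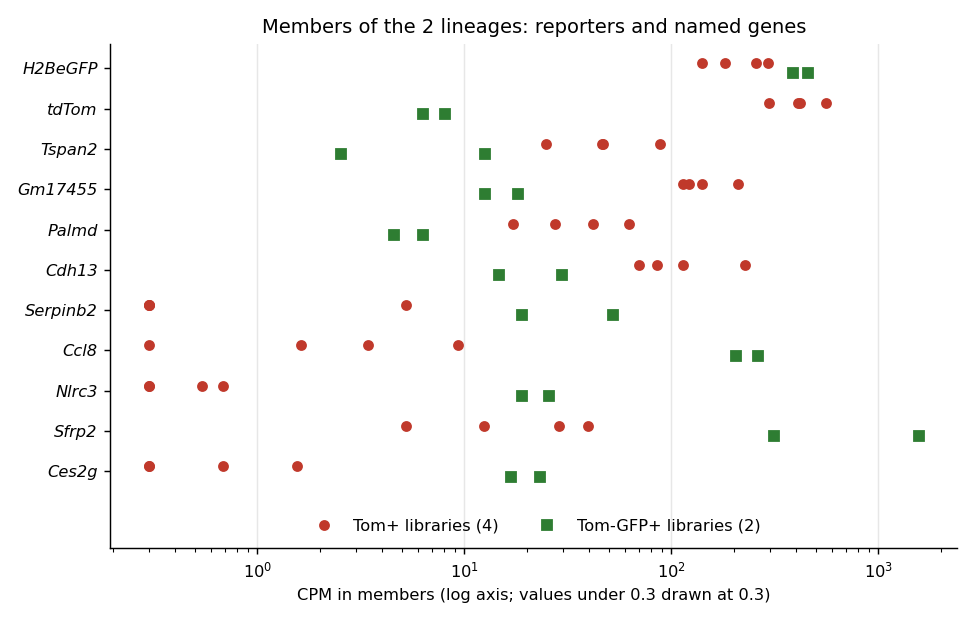
CPM in members (log axis, values under 0.3 drawn at 0.3) of the reporters and 9 genes named for the lineage comparison, one point per library, 4 Tom+ (circles) and 2 Tom-GFP+ (squares). The lineages are apart in each row, with Tom+ higher for *tdTom* to *Cdh13* and lower for *H2BeGFP* and for *Serpinb2* to *Ces2g*. The 9 named genes were picked by fold change, so their separation is a description. *H2BeGFP* did not pass in the fit without a replicate block.

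Whether the difference between members and comparison cells depended on lineage was tested by an interaction term. Of 10040 genes 3 were called (0.0299%), with 652 at an unadjusted p under 0.05 and 8 called by DESeq2. *Ccl8* was far below the comparison cells in Tom+ members, whose comparison cells had 13.9, 82.3, 242 and 196 CPM, and near them in Tom-GFP+ libraries, whose comparison cells had 322 and 167 CPM (interaction -4.48 ± 0.50, adjusted p = 0.00278, a size that depends on the prior count because Tom+ members had so few *Ccl8* UMIs). *H19*, an imprinted non-coding RNA, was at 127, 212, 51.4 and 212 CPM in Tom+ members against 171, 277, 163 and 209 CPM in their comparison cells, and at 260 and 572 CPM against 97.4 and 99.3 CPM in Tom-GFP+ libraries (-2.47 ± 0.36, adjusted p = 0.0234). *F3*, encoding tissue factor, stood at 195 CPM in the comparison cells of Tom-GFP+ injured replicate 1 and at 3.99 to 7.95 CPM in those of the other 5 libraries (3.08 ± 0.44, adjusted p = 0.0234), and without that library the value was 1.08 (adjusted p = 0.873). *H19* lost its call without Tom+ injured replicate 2 or Tom-GFP+ injured replicate 2 (adjusted p = 0.0728 and 0.0806), and *F3* also without Tom+ injured replicates 2 or 3 (0.0903 and 0.0535). At like depth none of the 3 was called, with *Ccl8* at -4.32 and *H19* at -2.25.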

How the data were processed

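Single-cell transcripts of sorted mouse knee cells were counted by the authors with Cell Ranger (version 3.0.2 in the matrix headers of 5 libraries, with GRCm38.p6 in the submitters' processing notes); the annotation release is not given in the sources used here. The deposited values are raw UMI counts per gene and cell, not normalized. Of 54532 Ensembl genes listed, 54409 matched GENCODE vM21, from which coordinates were taken. Libraries held 424 to 865 barcodes and 4262658 to 15033902 UMIs in the 6 injured samples, and 333 to 547 barcodes and 2866464 to 4751957 UMIs in the 3 steady-state samples. The study's main text gives the libraries of one sort and condition as separate mice, and the Tom-GFP+ mice as matched to Tom+ mice without saying which. The lineage fit thus treats as independent some libraries that may share a mouse.

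Cells were filtered and members chosen as the report states. The members and the gene lists were chosen with earlier results of these data known. UMIs were summed per library and set, needing at least 10 cells, and tested with edgeR 4.0.16 (quasi-likelihood F test, TMM, filterByExpr, Benjamini-Hochberg adjustment over all genes tested, threshold 0.05), with library as a block between sets. The 12 genes of the rule, *Tnc*, *Mdk* and mitochondrial genes were not tested. Named genes were the 15 highest and 12 lowest fold changes among genes called, changed the same way in every library and at a mean of at least 50 CPM in the higher set, without ribosomal protein and predicted genes; for lineage, the 5 highest and 5 lowest at 20 CPM or more, predicted genes included. Some genes that these rules or lists name are not reported here. Standard errors are those of the log2 fold change. Doublets were scored with Scrublet (scanpy 1.11.5) and not removed. Shares of cells with UMIs of the factors were compared after thinning each cell to 5000 UMIs, and other shares are given as counted and thinned. Thinning left out 2 members and 82 comparison cells. DESeq2 1.42.0, other filters, other rules, other comparison cells and the omission of each library were alternatives. The model fits were tested on simulated counts.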

Additional observations from a re-analysis of the deposited data

Results flagged for a closer look

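Among 99 groups of 4 Tom+ libraries examined, 9 had a library far from the others by Dixon's test, where chance gives about 1 in 20. In members, *Cthrc1* was lowest in Tom+ injured replicate 4 at 3047 CPM, with 4873 to 5120 CPM in the others. *Ccl19* was highest in replicate 3 at 18.7 CPM (0 to 0.686 in the others), *F13a1* in replicate 2 at 15.1 CPM (4.67 to 5.23) and *Serpinb2* in replicate 4 at 5.23 CPM (0 in the others). Members with UMIs of *Sox9*, *Runx2* and *Scx* at 5000 UMIs were found in Tom+ injured replicate 1, at 1.92%, and in no other library.

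In the comparison cells of Tom+ injured replicate 1, 3 genes that were higher in members were far above the other Tom+ libraries: *C1qtnf3* at 296 CPM (79.0 to 114 in the others), *Fabp5* at 103 CPM (12.0 to 22.9) and *Scx* at 79.2 CPM (7.83 to 14.96). The same library had the largest share of members. The 15 immune genes summed to 1064 CPM in the comparison cells of Tom+ injured replicate 4 and to 22.9 to 58.1 CPM in the other Tom+ libraries.

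The interaction term of the edgeR fit, for a member effect that differs between lineages, was called for *Ccl8* (-4.48), *F3* (3.08) and *H19* (-2.47). *F3* rests on the comparison cells of Tom-GFP+ injured replicate 1 (1.08 without it, adjusted p = 0.873), *H19* lost its call in 2 omissions, and none of the 3 was called at like depth.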

How the results depend on the processing

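Of 103 genes named from the comparison with *Cd34*+ *Lrrc15*-negative cells and called, 98 kept their direction under every alternative run, 86 kept the call in every omission of a library, 92 under DESeq2 and 44 within the members' interquartile range of UMIs. The 27 genes named by rule were called in each omission and by DESeq2. Of those tested, 18 of 23 were called within the members' interquartile range of UMIs and 14 of 21 with the rule applied after thinning. With 1 *Lrrc15* UMI after thinning, 24 of 25 were called. For 571 higher and 752 lower genes, the fit without the library block (no replicate block) gave 232 and 429, the rule applied after thinning 38 and 227 (3 libraries), thinning with 1 *Lrrc15* UMI, chosen after seeing the data, 76 and 443, and the interquartile range 83 and 117. Thinning moved the median of all genes to -0.20 and -0.18, so values there are relative to that shift. Omitting 1 library gave 406 to 599 higher and 465 to 709 lower genes, the fewest lower (465) without Tom+ injured replicate 2.

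For the 76 lineage genes, no filter on low counts gave 366, thinning with 1 *Lrrc15* UMI 7, the interquartile range 16, and omissions 19 to 69: 45, 21 and 19 without Tom+ injured replicates 1 and 2 and Tom-GFP+ injured replicate 1. Tom+ and Tom-GFP+ libraries share only the numbers 1 and 2, with correlations of deviations of 0.174 and 0.161. Tom+ replicates 3 and 4 correlated as well with Tom-GFP+ replicates 1 and 2 (0.185 and 0.168), so these values do not single out the shared numbers. The labels and the study's main text do not say which mice were matched. A replicate block gave 366 genes (175 higher in Tom+, 191 lower), *H2BeGFP* among the lower (-1.32, adjusted p = 0.000506). For the 3 interaction genes, DESeq2 gave 8, no filter 160, at least 3 *Lrrc15* UMIs 6, the rule after thinning 11, comparison cells without the limits 13, with any *Cd34* count 14, the interquartile range 0, and omissions 2 to 18. A version without TMM factors, also chosen after seeing the data, gave 69 lineage and 3 interaction genes.

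The difference in the share of members between lineages ranged from -7.68 to 0.667 percentage points over omissions and turned positive (0.667) without Tom-GFP+ injured replicate 1. With any *Cd34* count in the comparison cells, the differences for *Sox9* and *Runx2* were -0.637 and -0.532 percentage points, and the share with all 3 factors ranged from -0.113 to 0.385 over omissions, -0.113 without Tom+ injured replicate 1. With the same comparison cells log2 fold changes turned for *Mmp13* (-1.74), *Tgfb1* (-0.0866), *Clec3b* (0.0191), *Ibsp* (-5.12), *Sox9* (-0.53), *Acan* (-0.75) and *Cspg4* (-0.24). *Cxcl5* turned to -1.29 after thinning, -0.23 with 1 *Lrrc15* UMI and -0.42 in the interquartile range, and *Tubb5* to -0.17 and -0.00491 under both thinned rules. The causes were not tested. Depth limits the shares of cells with a UMI of a factor.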
